A study of Mus musculus with 4 samples.

Results

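MHC class II molecules carry peptides from taken-up proteins to the surface of antigen presenting cells, where helper T cells read them. The transcripts described here come from 8 of the 32285 genes listed in the count tables, chosen by symbol. H2-Aa, H2-Ab1 and H2-Eb1 encode chains of the class II molecules themselves. Cd74 encodes the invariant chain, which fills the groove of new molecules and guides them to endosomes. H2-DMa and H2-DMb1 encode the H2-DM exchanger, which frees the groove for peptide, and H2-Oa encodes the alpha chain of H2-DO, which holds H2-DM back. Ciita encodes the coactivator that switches the class II genes on. It does not bind DNA by itself and is recruited by factors that sit on paired promoter elements called the X box and the Y box. Dendritic cells and B cells use this machinery constitutively and macrophages to a varying degree. Many other cells, epithelium included, can take it up under interferon gamma.

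Single-cell RNA was sequenced from mammary tumors of mice of 17 to 18 weeks (10x Genomics chemistry that reads the 3' ends of RNAs). Each library is taken here as 1 mouse, since the study's text does not give the number of mice per library. MMTV-Cre-; Frmd8fl/fl; PyMT mice (Cre-) gave replicates 1 and 3, and MMTV-Cre+; Frmd8fl/fl; PyMT mice (Cre+) gave replicates 2 and 4. All 4 mice thus carried the floxed Frmd8 allele and the PyMT oncogene, and the genotypes differed in Cre, which the MMTV promoter drives in luminal mammary epithelium. Both floxed and PyMT mice were of C57BL/6 background. Cells had been sorted by fluorescence before loading, with a gate not given in the sources used here, so shares of cell types are not compared.

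Barcodes with at least 1000 UMIs (unique molecular identifiers, each marking 1 captured RNA molecule) and at most 20% mitochondrial UMIs were kept, 4922 and 5918 from the Cre- and 5609 and 7123 from the Cre+ libraries, 23572 in all. Their median depth lay between 12455 and 13072.5 UMIs, and any 2 libraries shared 6 to 16 barcode sequences. Replicate 4 was deposited with all of its barcodes, and the other 3 as called cells. Cells were gated on marker UMIs other than the 8 genes, which gave 279 dendritic cells, 5825 macrophages, 323 monocytes, 126 B cells, 8678 tumor epithelial cells (epithelial barcodes outside the hormone-sensing gate) and 1043 T cells, the last as cells not known to make class II in the mouse. Only 12, 16, 21 and 77 B cells came from Cre- replicates 1 and 3 and Cre+ replicates 2 and 4. Values are counts per 1000000 UMIs of a class in a library (CPM), and 4 values in a row stand in this order of libraries throughout. The 3' UMIs are not divided by gene length, so levels are compared between cells and not between genes. Frmd8 itself was at 24.3 and 24.4 CPM in the Cre- and at 5.12 and 10.7 in the Cre+ tumor epithelial cells, and at 25.4 and 23.8 CPM in the Cre- and 19.1 and 13.6 CPM in the Cre+ macrophages. The floxed exons, which the study names, were not matched to the 3' tags, and a tag outside them would not check the deletion.

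Promoter windows from RefSeq (GRCm38.p6, 250 bases before to 50 after a start) were found for 5 of the 8 genes. H2-Ab1, Ciita and Cd74 are named only. The stretches below, read on the strand of the gene, hold an X-like core GNAAC and the Y box TGATTGG, both in capitals. Whether Ciita acts through them in these cells was not tested. The letters were chosen after these windows had been read.
H2-Aa: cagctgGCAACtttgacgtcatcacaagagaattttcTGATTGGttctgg
H2-Eb1: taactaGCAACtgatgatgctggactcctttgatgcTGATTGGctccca
H2-DMb1: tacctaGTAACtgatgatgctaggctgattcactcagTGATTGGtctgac
H2-Oa: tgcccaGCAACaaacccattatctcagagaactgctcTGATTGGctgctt
H2-Ob: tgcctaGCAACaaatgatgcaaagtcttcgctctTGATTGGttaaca
These are, in the same order, chr17:34287861-34287910 on the minus strand and, on the plus strand, chr17:34305770-34305818, chr17:34153091-34153140, chr17:34092297-34092346 and chr17:34238812-34238858. H2-Ob, the beta chain of H2-DO, is shown as the partner of H2-Oa. The 2 motifs start 28 to 31 bases apart, and the Y box starts 45 to 63 bases before the transcription start. The 2 windows of H2-DMa held neither the Y box nor the pair. The window of H2-DMb2, a further H2-DM beta chain outside the 8 genes that was also searched, held the Y box but not the pair. Among all 32851 windows, 7.82% held TGATTGG on either strand and 0.715% held the pair with starts 20 to 45 bases apart on 1 strand. A match is a description of letters and not a test of binding.

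Dendritic cells held the most class II RNA. The 8 genes made up 4.8, 5.41, 5.09 and 5.03% of all their UMIs, against 2.55, 2.48, 4.09 and 2.49% in macrophages. Between these classes the shares of Cd74 and H2-Aa in the class II UMIs were close, and those of H2-Oa and Ciita were not. Cd74 gave 38.4 to 39.9% of the class II UMIs of dendritic cells and 43.3 to 45.5% of those of macrophages, and H2-Aa gave 18.9 to 20.7% and 16.7 to 18.4%. H2-Oa gave 0.302 to 0.415% in dendritic cells and 0.0168 to 0.0284% in macrophages, and Ciita gave 0.331 to 0.494% and 0.102 to 0.177%.

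For the alpha chain H2-Aa, dendritic cells stood at 9950, 10800, 10200 and 9510 CPM and macrophages at 4680, 4520, 7510 and 4160 CPM. H2-Aa was at 2990, 3990, 3720 and 1570 CPM in monocytes and at 2750, 942, 1170 and 4960 CPM in B cells. The dendritic cell values lie close together and above those of every other class in all 4 libraries. Those of monocytes and B cells overlap widely, and Cre+ replicate 2 stands above the other macrophage libraries. H2-Ab1, the beta chain that pairs with H2-Aa, was at 10000, 10700, 10500 and 10400 CPM in dendritic cells and at 5060, 4580, 7580 and 4760 CPM in macrophages. H2-Eb1, a further beta chain whose partner is H2-Ea, was at 7880, 8990, 8540 and 8780 CPM in dendritic cells and at 3880, 3890, 6350 and 3710 CPM in macrophages. Both beta chains thus repeat the order of H2-Aa. H2-Ea was not among the listed symbols, so whether a complete molecule with H2-Eb1 is made cannot be read from these counts. Cd74 was at 18400, 21600, 19600 and 19400 CPM in dendritic cells, at 11000, 10900, 18400 and 11300 CPM in macrophages, at 6110, 9380, 9220 and 3720 CPM in monocytes and at 7720, 5450, 5260 and 12200 CPM in B cells. The macrophages of Cre+ replicate 2 thus reached the level of the lowest dendritic cell library for Cd74, although dendritic cells were higher within each library. H2-DMa was at 749, 901, 835 and 1000 CPM in dendritic cells and at 400, 426, 486 and 434 CPM in macrophages. These values did not overlap, and the share of all genes without overlap was not counted. Cre+ replicate 2 was again the highest macrophage library but closer to the others.

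**Figure D1:**
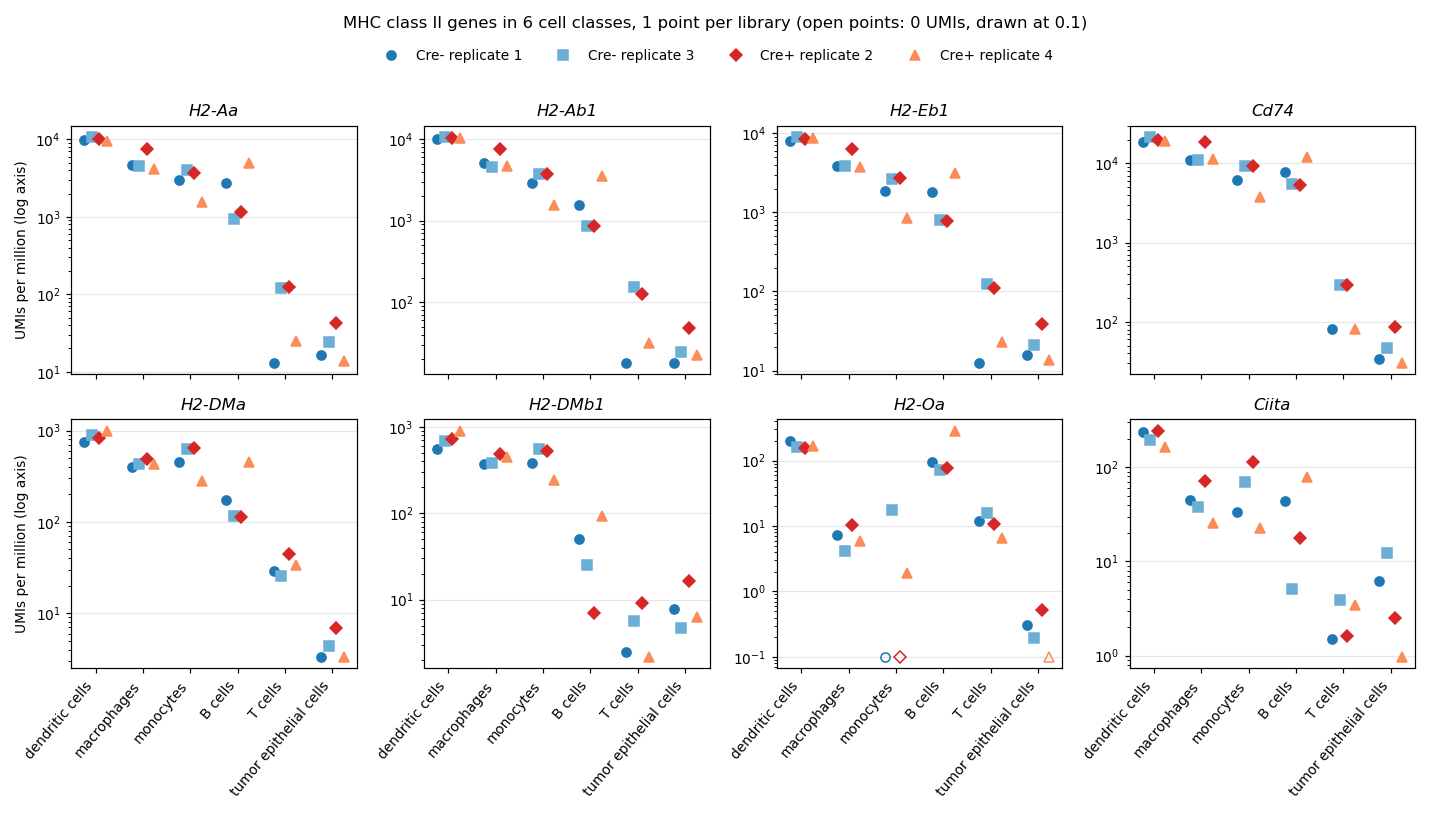
CPM (log axis) of the 8 genes in 6 cell classes, 1 point per library, with open points for 0 UMIs. Within each library the chains and Cd74 are highest in dendritic cells and lowest in T cells and tumor epithelial cells. H2-Oa is highest in dendritic cells and B cells. Ciita in tumor epithelial cells is higher in both Cre- libraries (6.24 and 12.3) than in both Cre+ libraries (2.5 and 0.969).

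Dendritic cells were compared with macrophages on UMIs summed per library and class with edgeR's quasi-likelihood test and Benjamini-Hochberg adjustment over all 11319 genes tested. The sums of all 6 classes stood in 1 fit and shared 1 estimate of the spread. The p-values between 2 classes therefore also reflect the spread between libraries in the other classes, B cells and T cells included. At an adjusted p under 0.05, 28.1% of all genes were called, 13.3% as higher in dendritic cells, and 3 of the 8 class II genes were called, all as higher. These were H2-DMa, with a log2 fold change of 1.06 (SE 0.28, adjusted p = 0.00486), H2-Oa with 4.70 (SE 0.50, adjusted p = 8.58e-08) and Ciita with 2.28 (SE 0.51, adjusted p = 0.00122). The 3 chains had log2 fold changes of 0.98 to 1.02 (adjusted p = 0.107 to 0.127 in edgeR) and Cd74 one of 0.67 (adjusted p = 0.194 in edgeR). In single libraries the ratio for H2-Aa was 2.13, 2.39, 1.36 and 2.29, lowest in Cre+ replicate 2. H2-DMb1, at 0.84 (adjusted p = 0.0828), passed with the mouse as a block, where it was 0.85 (adjusted p = 0.0425 in edgeR), and also without Cre+ replicate 2, at 0.92 (adjusted p = 0.0465 in edgeR). The median log2 fold change of the 8 genes was 1.01, against -0.04 over all genes tested.

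Ciita itself was at 237, 193, 245 and 166 CPM in dendritic cells and at 45.1, 37.7, 71.9 and 25.4 CPM in macrophages. In monocytes it was at 33.2, 69.3, 113 and 22.8 CPM. Macrophages and monocytes overlap, and dendritic cells stand above both in every library. Ciita overlaps Dexi on the opposite strand, as H2-Eb1 does Gm20513 and H2-Oa does BC051537, and whether the counting used strand is not given in the sources used here, so reads of such neighbors cannot be told apart with certainty.

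The dendritic cells were not uniform. Cells with cDC1 markers (Xcr1, Clec9a, Wdfy4 and Itgae, 24, 41, 30 and 24 cells) and cells with cDC2 markers (among them Cd209a and Clec10a, 18, 45, 11 and 8 cells) held all 8 genes at dendritic cell levels. Mature dendritic cells, marked by Ccr7, Fscn1, Il4i1, Ccl22 and Cacnb3 (16, 36, 10 and 10 cells), still held H2-Aa at 7190, 7790, 3670 and 5890 CPM, against 10400, 11100, 10000 and 9550 CPM in cDC1. Their H2-DMa was at 223, 286, 155 and 38.6 CPM against 872, 956, 899 and 1180 CPM in cDC1. H2-DMb1 was at 71, 87.5, 10.3 and 38.6 CPM in mature cells and at 671, 769, 775 and 1070 CPM in cDC1. For Ciita the values were 66, 85.3, 10.3 and 19.3 CPM in mature cells and 281, 219, 265 and 194 CPM in cDC1. H2-DMa, H2-DMb1 and Ciita thus differed more between these subsets than H2-Aa did, in each of the 4 libraries, and this was not tested. In Cre+ replicates 2 and 4 the mature values of H2-DMb1 rest on 1 and 4 UMIs, and those of Ciita on 1 and 2 UMIs. All these are summed values. The 8 genes together had medians of 151, 212, 50.8 and 89.5 per 10000 UMIs in single mature cells, against 554, 564, 507 and 517 in cDC1. The 10% of mature cells with the most class II UMIs held 40.9, 33.4, 44.7 and 58.8% of them. The typical mature cell thus held less class II RNA than the sums show.

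H2-Ab1 and H2-Aa also parted in mature cells. H2-Ab1 gave 15.5, 15.0, 8.42 and 10.7% of their class II UMIs and H2-Aa 23.5, 23.0, 26.0 and 25.3%, whereas in cDC1 the share of H2-Ab1 was 20.6 to 22.3% and that of H2-Aa 18.0 to 20.2%. Plasmacytoid dendritic cells, 30 in all, were gated apart, and their H2-Aa was at 5960, 2850, 2040 and 6450 CPM.

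In B cells, the chains of the peptide editors were used in another combination than in macrophages. H2-Oa was at 94.4, 70.5, 77.6 and 286 CPM in B cells, at 199, 163, 155 and 169 CPM in dendritic cells and at 7.23, 4.15, 10.2 and 5.99 CPM in macrophages. H2-DMb1 was at 50.8, 25.2, 7.05 and 93 CPM in B cells, on 7, 5, 2 and 28 UMIs, against 370, 386, 484 and 445 CPM in macrophages. Its neighbor H2-DMb2, which encodes the other beta chain of H2-DM, was at 269, 90.7, 98.7 and 475 CPM in B cells and at 8.61, 7.92, 8.26 and 9.73 CPM in macrophages. In dendritic cells H2-DMb2 was at 296, 278, 163 and 179 CPM beside H2-DMb1 at 559, 694, 728 and 903 CPM. Macrophages thus held H2-DMb1 with little H2-DMb2, dendritic cells held both, and B cells were high in H2-DMb2 and low in H2-DMb1. The 2 genes are near-identical neighbors, so reads could be assigned to either, and both values are uncertain to that extent.

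H2-Ab1 was at 1580, 867, 867 and 3490 CPM in B cells, below macrophages in every library. These are summed values, in which deep cells weigh more. Medians over single B cells, given below for the 8 genes together, did not lie below macrophages in every library. Between B cells and macrophages 33.1% of the 11319 genes were called by edgeR, 12.9% as higher and 20.1% as lower in B cells, and 3 of the 8 class II genes. H2-Oa was higher in B cells, with a log2 fold change of 4.66 (SE 0.54, adjusted p = 2.66e-07), and H2-DMb1 was lower, with -2.90 (SE 0.46, adjusted p = 2.13e-05). H2-Ab1 was lower too, with -1.39 (SE 0.45, adjusted p = 0.0197 in edgeR), but it did not pass without Cre+ replicate 2 (-1.07, adjusted p = 0.145), without Cre- replicate 3 (-1.34, adjusted p = 0.0696) or under a stricter gate (-0.99, adjusted p = 0.288). H2-Aa (-0.81), H2-Eb1 (-1.14), Cd74 (-0.38), H2-DMa (-0.68) and Ciita (0.11) did not pass. Without Cre+ replicate 4, which holds most of the B cells, H2-Eb1 (-1.56, adjusted p = 0.02) and H2-DMa (-1.15, adjusted p = 0.00366 in edgeR) passed too. Both also passed with no low-count filter, and H2-Eb1 with the study's upper depth limits. The median of the 8 genes was -0.74, against -0.26 over all genes tested. It was -1.23 without Cre+ replicate 4, -0.47 without Cre+ replicate 2 and -0.34 under the stricter gate. Outside the 8 genes, H2-DMb2 was higher in B cells by 5.06 (SE 0.57, adjusted p = 1.57e-07 in edgeR) and H2-Ob by 5.73 (SE 0.40, adjusted p = 4.74e-11 in edgeR), both on the log2 scale. Against macrophages, H2-DMb2 was higher also in dendritic cells, by 4.78 (SE 0.54, adjusted p = 1.9e-07 in edgeR), and so was H2-Ob, by 4.47 (SE 0.37, adjusted p = 1.26e-09 in edgeR).

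**Figure D2:**
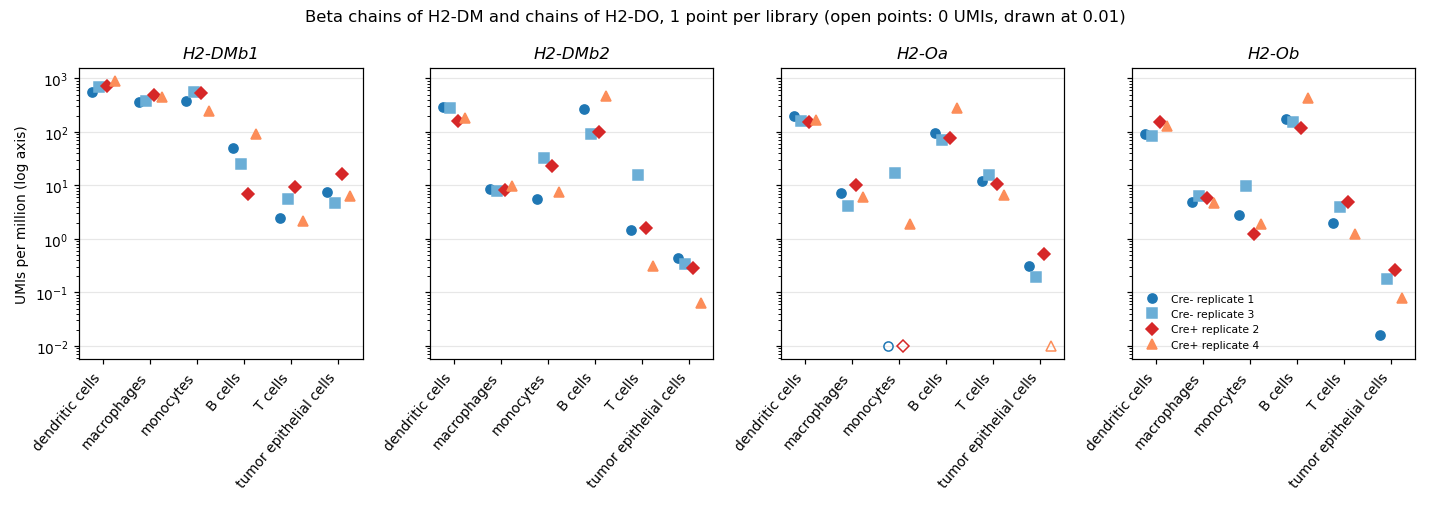
CPM (log axis) of the 2 H2-DM beta chains and of both H2-DO chains in 6 cell classes, 1 point per library, with open points for 0 UMIs. Macrophages hold H2-DMb1 at 370 to 484 and H2-DMb2 at 7.92 to 9.73, and B cells stand low in the first and high in the second.

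Among monocytes, H2-DMa was at 451, 628, 643 and 278 CPM and H2-DMb1 at 379, 555, 527 and 244 CPM, overlapping the macrophage values of both genes. H2-Eb1 in monocytes was at 1880, 2620, 2680 and 857 CPM, below macrophages in each library. H2-Oa had 0, 14, 0 and 3 UMIs in monocytes. Of the 8 genes 0 were called between monocytes and macrophages by edgeR, where 22% of all genes were called, 8.84% as higher and 13.2% as lower. H2-Eb1 (-1.12) and Cd74 (-0.83) passed at an unadjusted p under 0.05. Cd74 also passed with the mouse as a block (-0.87, adjusted p = 0.0305), and under a stricter gate (1 more marker, and lower limits on markers of other classes) the 3 chains and Cd74 passed at -1.58 to -2.14 (adjusted p = 0.00607 to 0.0265 in edgeR). H2-Eb1 and Cd74 passed with no low-count filter (-1.33 and -1.04) and with the study's upper depth limits (-1.40 and -1.10), with adjusted p = 0.0259 to 0.0375 in edgeR. The median of the 8 genes was -0.58, against -0.11 over all genes tested. It was -0.98 without Cre- replicate 3, -0.29 without Cre+ replicate 2, -0.31 without Cre+ replicate 4 and -1.33 under the stricter gate.

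Single cells spread widely around these sums. The summed UMIs of the 8 genes per 10000 UMIs of a cell had medians of 539, 555, 504 and 472 in dendritic cells. The medians were 218, 180, 380 and 216 in macrophages, with 10th percentiles of 3.63 to 20.3 and 90th percentiles of 622 to 883. Macrophages therefore ran from cells with hardly any class II RNA to cells at the level of dendritic cells. Monocytes had medians of 21.0, 93.4, 56.5 and 14.4. B cells had medians of 256, 229, 250 and 250, so the typical B cell was alike in the 4 libraries although the sums were not.

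**Figure D3:**
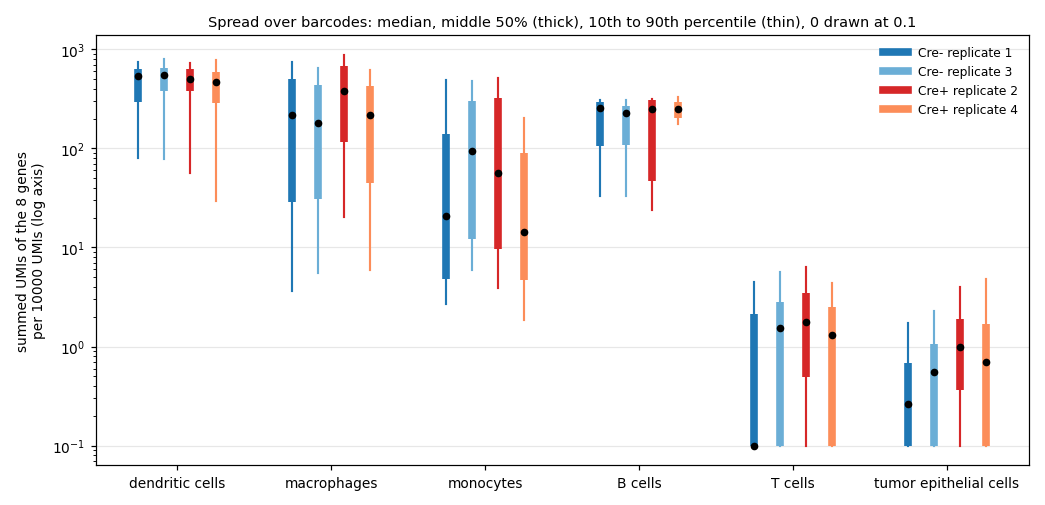
Summed UMIs of the 8 genes per 10000 UMIs in single barcodes (log axis), with median, middle 50% and 10th to 90th percentile per class and library. Dendritic cells have the highest medians, and on the log axis their middle 50% is narrower than that of macrophages and monocytes. Their 10th percentiles of 29.5 to 80.9 lie far below their 90th percentiles of 721 to 794. Macrophages and monocytes range more widely, and T cells and tumor epithelial cells stay near 0.

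To describe that range, the macrophages of each library were put into 4 sets of like size by their H2-Aa, H2-Ab1 and H2-Eb1 UMIs per 10000, so these 3 genes are not results here. In the lowest set the other members were low too. Cd74 went from 327, 560, 2240 and 713 CPM in the lowest to 31800, 27300, 37400 and 27000 CPM in the highest set. Ciita went from 1.14, 1.76, 7.02 and 0.42 CPM to 107, 91.9, 122 and 62.1 CPM. H2-DMa spanned less, from 125, 151, 142 and 155 CPM to 761, 807, 751 and 758 CPM. H2-DMb1 went from 71.5, 81.4, 82.8 and 75.3 CPM to 800, 848, 836 and 844 CPM, and these values were nearly alike in the 4 libraries. H2-Oa stayed at 12.3 to 27.4 CPM even in the highest set, below every dendritic cell library.

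Cells of the lowest set were led by other genes. Arg1, which breaks down arginine, was at 864, 384, 290 and 441 CPM there and at 1.17, 8.31, 0.617 and 6.86 CPM in the highest set. Spp1, encoding osteopontin, was at 14900, 2590, 5520 and 1560 CPM in the lowest and at 110, 276, 99.8 and 41.3 CPM in the highest set. Gpnmb, Folr2, F13a1, Pmp22, Fabp5, Cbr2, Pf4 and Npl followed. In the highest set the cytokine gene Il1b was at 6300, 4280, 6000 and 3640 CPM, against 639, 879, 367 and 783 CPM in the lowest, and Qpct, Il1a, Zmynd15, Pmaip1, Malt1, Plbd1, Napsa, AW112010 and Spint1 followed. These are the 10 genes in each direction with the largest least difference over the 4 libraries. They were chosen on these cells and carry no test.

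**Figure D4:**
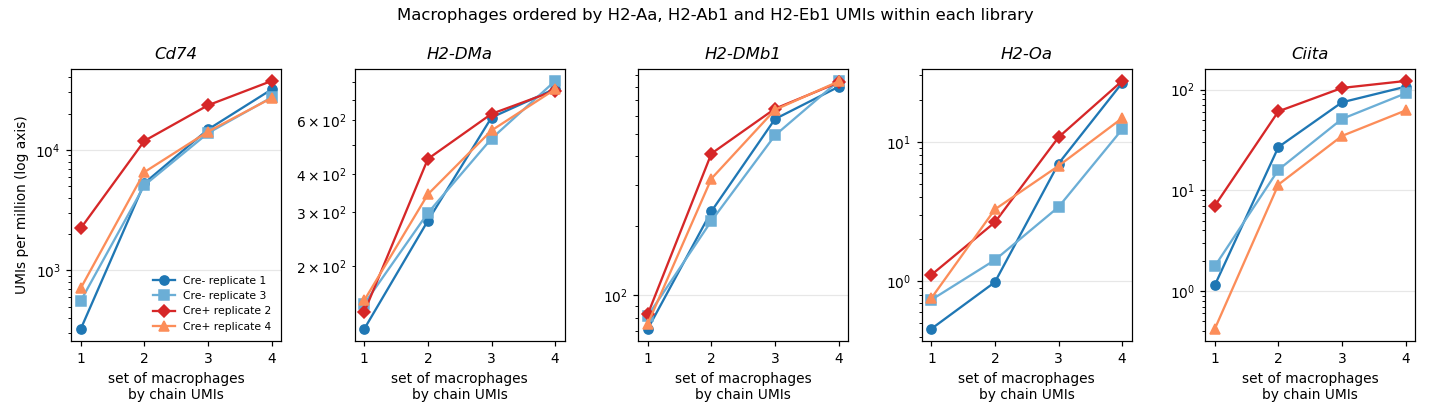
CPM (log axis) of Cd74, H2-DMa, H2-DMb1, H2-Oa and Ciita in macrophages in 4 sets ordered by chain UMIs, 1 line per library. All 5 genes climb from set 1 to set 4 in every library, Ciita from 0.42 to 7.02 up to 62.1 to 122.

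In tumor epithelial cells, class II RNA was low. The 8 genes were 0.0101, 0.0139, 0.0241 and 0.00902% of their UMIs. H2-Aa was at 16.6, 24.5, 42.7 and 13.7 CPM in tumor epithelial cells and at 12.9, 121, 123 and 24.8 CPM in T cells. Cd74 was at 33.7, 46.8, 86.1 and 30.1 CPM in tumor epithelial cells and at 82, 288, 290 and 81 CPM in T cells. In droplets of replicate 4 with at most 100 UMIs, which hold mostly free RNA, the 8 genes made up 9210 CPM and Cd74 alone 4240 CPM. After thinning to 1000 UMIs per cell, 1.46 to 3.18% of tumor epithelial cells and 2.05 to 4.33% of T cells held an H2-Aa UMI, at unthinned median depths of 13395.5 to 24044.5 and 5871.5 to 11726 UMIs. The epithelial share was below that of the T cells in Cre- replicate 1 and Cre+ replicate 2 and slightly above it in the other 2, and the part of free RNA in it was not tested.

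For H2-DMa, tumor epithelial cells were at 3.35, 4.36, 6.99 and 3.33 CPM and T cells at 29.3, 25.5, 44.9 and 33.8 CPM. For H2-Oa, tumor epithelial cells had 19, 13, 26 and 0 UMIs, at most 0.524 CPM, and T cells stood at 11.9, 15.6, 10.8 and 6.52 CPM. Neither gene overlapped between these classes, and the share of all genes without overlap was not counted. Between tumor epithelial cells and T cells 59.6% of all genes were called by edgeR, 32% as higher and 27.6% as lower, and 6 of the 8 class II genes, all as lower. The 3 chains were lower in tumor epithelial cells, by -1.64 to -1.70 in log2 fold change (adjusted p = 0.00334 to 0.00655 in edgeR). They did not pass without Cre- replicate 3, at -1.11 to -1.23 (adjusted p = 0.0939 to 0.102 in edgeR), or under the stricter gate, at -1.04 to -1.18 (adjusted p = 0.0541 to 0.079 in edgeR). In Cre- replicate 1 the ratio of tumor epithelial to T cells was 1.29 for H2-Aa, 0.994 for H2-Ab1 and 1.26 for H2-Eb1. In the other libraries it was 0.161 to 0.7 for these genes. The 10% of T cells with the most class II UMIs held 84.4% of them in Cre- replicate 3 and 79.7% in Cre+ replicate 2. Cd74 was lower at -2.02 (SE 0.39, adjusted p = 7.36e-05), H2-DMa at -3.01 (SE 0.31, adjusted p = 7.29e-09) and H2-Oa at -5.54 (SE 0.62, adjusted p = 2.86e-08). H2-DMb1 (0.80) and Ciita (0.87) did not pass. With the study's upper depth limits H2-DMb1 passed as higher in tumor epithelial cells, at 1.00 (adjusted p = 0.0405 in edgeR). The median of the 8 genes was -1.68, against 0.06 over all genes tested. It was -2.95 when only tumor epithelial barcodes with little leukocyte RNA were kept. T cells were not filtered in this way, and such a limit on 1 side alone itself lowers the value.

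The 10% of tumor epithelial barcodes with the most class II UMIs held 75.5, 70.6, 72.3 and 44.7% of them. Barcodes with 10 or more chain UMIs numbered 10, 30, 23 and 15 and carried 13.1, 12.4, 19.5 and 8.57 UMIs per 10000 of a leukocyte list (Ptprc, Tyrobp, Fcer1g, Lyz2, Cd52, C1qa, C1qb and C1qc), against at most 1.64 in the barcodes with fewer chain UMIs. Their Cd74 was at 3050, 1330, 2170 and 306 CPM. In barcodes with at most 2 leukocyte-list UMIs per 10000, a limit set after the data had been seen, H2-Aa was at 4.95, 8.7, 14.6 and 10.0 CPM and Cd74 at 9.44, 15.7, 25.3 and 20.8 CPM. Doublets were not removed, and their part in these barcodes was not tested.

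Ciita did not follow the chains in tumor epithelial cells. It was at 6.24, 12.3, 2.5 and 0.969 CPM, on 384, 809, 124 and 62 UMIs, so both Cre- libraries stood above both Cre+ libraries. With 2 mice per genotype such an order can readily arise without a difference, and the share of all genes with it was not counted. In T cells Ciita was at 1.49, 3.9, 1.62 and 3.41 CPM, on 3, 9, 3 and 11 UMIs. Ciita made up 6.16 and 8.84% of the class II UMIs of Cre- and 1.04 and 1.07% of those of Cre+ tumor epithelial cells. Its share was 0.102 to 0.177% in macrophages, 0.331 to 0.494% in dendritic cells and 0.0937% in the near-empty droplets of replicate 4. In hormone-sensing epithelial cells the share of Ciita was 0.858, 8.87, 0.759 and 0%. The values from Cre- replicate 3 and Cre+ replicate 4 rest on 15 and 3 such cells. In the barcodes with little leukocyte RNA, where H2-Aa had dropped, Ciita remained at 5.93, 12.3, 2.12 and 0.84 CPM.

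Part of the Ciita UMIs came from cells in which no chain UMI was captured. Of the 256, 423, 92 and 55 tumor epithelial cells with a Ciita UMI, 118, 106, 11 and 11 had no UMI of H2-Aa, H2-Ab1 or H2-Eb1. These cells held 154 of 384, 167 of 809, 16 of 124 and 15 of 62 Ciita UMIs, so most Ciita UMIs lay in cells with a chain UMI. Among macrophages with a Ciita UMI there were 1, 0, 0 and 0 such cells of 271, 389, 611 and 527. Their class held H2-Aa at 4160 to 7510 CPM, against 13.7 to 42.7 CPM in tumor epithelial cells. That level alone makes a cell with no chain UMI rarer, so the counts of the 2 classes are not set against each other. The leukocyte list was at 0.423, 0.609, 0.558 and 0.753 UMIs per 10000 in the epithelial cells with Ciita and no chain UMI, at 0.847, 1.38, 5.38 and 2.61 in those with both and at 0.684, 1.1, 1.29 and 1.45 in those with no Ciita UMI. The choice of cells with no chain UMI itself lowers leukocyte RNA, so these values are a description. The cells with Ciita and no chain UMI were deeper than those with no Ciita UMI, with medians of 48518, 37667.5, 36456 and 30778 UMIs against 17492, 19107, 12869 and 13192. After thinning to 1000 UMIs per cell, 0.417, 1.04, 0.316 and 0.0383% of tumor epithelial cells held a Ciita UMI. These are 8, 20, 7 and 1 cells, so Cre- replicate 1 and Cre+ replicate 2 were not told apart at this depth (95% exact binomial intervals of 0.18 to 0.819% and 0.127 to 0.65%). Dexi, on the opposite strand, was at 42.5, 42.0, 34.3 and 21.4 CPM in the same cells and was also higher in both Cre- libraries. The part of Dexi reads in the Ciita counts was not tested.

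The log2 fold change of Ciita between Cre+ and Cre- tumor epithelial cells was -2.40 (SE 0.60), with an unadjusted p under 0.05 and an adjusted p = 1.00 in edgeR over 15964 genes, of which 0 were called (0%) and 513 passed unadjusted. DESeq2 called 89 genes, Ciita among them at -2.41 (adjusted p = 0.0209). Without 1 library at a time the edgeR value ran from -1.85 to -3.11, and over the alternatives in edgeR the adjusted p ran from 0.0809 to 1. The other 7 genes had log2 fold changes of -0.01 to 0.88 there and did not pass, and the median of the 8 was 0.48 against 0.02 over all genes.

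**Figure D5:**
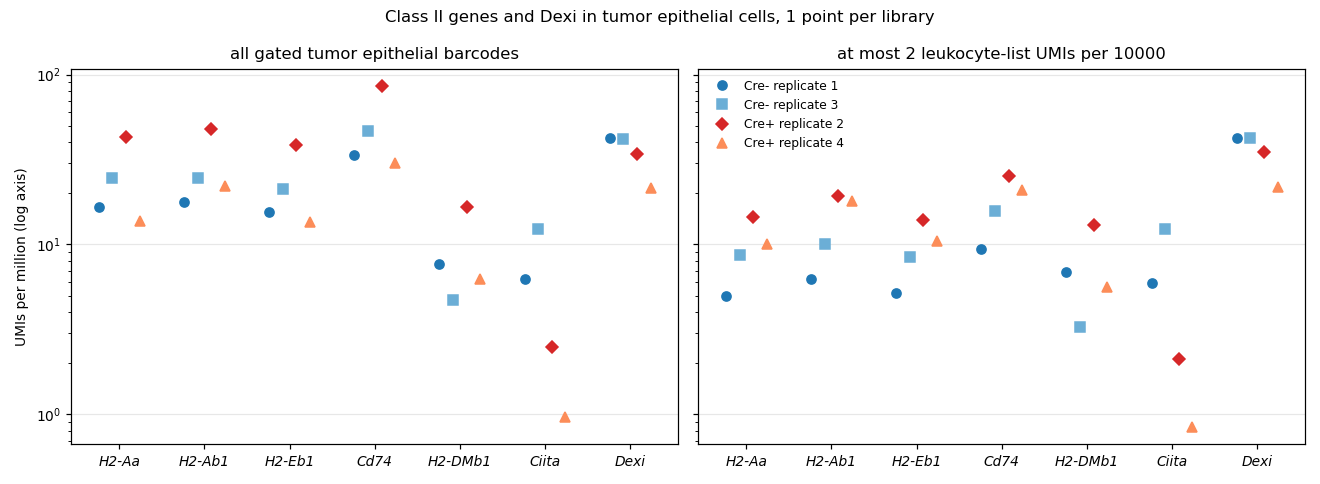
CPM (log axis) of 6 class II genes and of Dexi in tumor epithelial cells, 1 point per library, for all gated barcodes (left) and for those with at most 2 leukocyte-list UMIs per 10000 (right). The chains and Cd74 drop from left to right, whereas Ciita stays at 5.93 and 12.3 in the Cre- and at 2.12 and 0.84 in the Cre+ libraries.

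H2-DMb1 also stood apart in epithelium, though not there alone. It was at 7.7, 4.68, 16.5 and 6.28 CPM in tumor epithelial cells and at 2.48, 5.63, 9.2 and 2.17 CPM in T cells. In hormone-sensing epithelial cells (350, 15, 117 and 3 cells), set apart by Esr1, Pgr, Prlr, Cited1 and Foxa1, H2-DMb1 was at 29.5, 10.9, 23.6 and 5.8 CPM and gave 20.2, 12.1, 14.7 and 10.0% of their class II UMIs. In dendritic cells and macrophages the share of H2-DMb1 was 1.16 to 1.80%. It was 7.6, 3.38, 6.82 and 6.96% in tumor epithelial cells and higher, at 19.7, 6.56, 10.4 and 10.6%, in fibroblasts. The 2 libraries with few hormone-sensing cells rest on 15 and 3 UMIs.

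In the T cells, H2-DMa and H2-Oa spread less between libraries than H2-Aa. H2-DMa gave 17.2 and 16.4% of T cell class II UMIs in Cre- replicate 1 and Cre+ replicate 4, the 2 libraries with the least chain RNA, and 3.48 and 6.28% in the others. The 10% of T cells with the most class II UMIs held 58.9, 84.4, 79.7 and 50.5% of the class II UMIs of that class.

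Between the genotypes, none of the 8 genes was called in any of the 5 classes by edgeR. In macrophages 0 of 12894 genes were called (0%), 247 passed at an unadjusted p under 0.05, and DESeq2 called 11. The 8 genes had log2 fold changes of 0.26 to 0.61, with a median of 0.44 against 0.02 over all genes. For Cd74, Cre+ replicate 2 stood alone at 18400 CPM, whereas Cre+ replicate 4 was at 11300 and the Cre- libraries at 11000 and 10900 CPM. For H2-DMb1 and H2-DMa both Cre+ libraries stood above both Cre- libraries, at 484 and 445 against 370 and 386 CPM and at 486 and 434 against 400 and 426 CPM. The share of all genes ordered in this way was not counted. The median of the 8 genes was 0.17 without Cre+ replicate 2 and 0.72 without Cre+ replicate 4. In dendritic cells 0.0984% of 7114 genes were called, 0.0422% as higher and 0.0562% as lower in Cre+, and the 8 genes lay between -0.10 and 0.43, with a median of 0.03 against 0.01 over all genes. In monocytes 0% of 6643 genes were called, 174 passed unadjusted and DESeq2 called 2, and the 7 members tested lay between -0.42 and 0.24, with a median of -0.30 against 0.01. Without Cre+ replicate 2 the 3 chains and Cd74 passed in monocytes, at -1.03 to -1.36 (adjusted p = 0.000103 to 0.00162 in edgeR), a fit in which Cre+ replicate 4 is the lone Cre+ library and is assumed to vary like the others. In macrophages Ciita passed as higher in Cre+ without Cre+ replicate 4, at 0.82 (adjusted p = 0.0211 in edgeR), and as lower without Cre+ replicate 2, at -0.55 (adjusted p = 0.0221 in edgeR), so its direction depended on the Cre+ library kept. In B cells 0% of 2381 genes were called, 31 passed unadjusted and DESeq2 called 0, and the members lay between 0.03 and 0.83, with a median of 0.45 against 0 over all genes. Cell Ranger version and deposited form differ between Cre+ replicate 4 and the rest and cannot be told apart from that mouse.

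Of 22 other genes of the pathway, 9 were higher and 3 lower in dendritic cells than in macrophages, where 13.3 and 14.8% of all genes were. The higher ones include H2-Eb2, a further beta chain gene, at 5.28 (SE 0.42, adjusted p = 3.15e-09 in edgeR) and Rfx5, which binds the X box, at 1.16 (SE 0.33, adjusted p = 0.00929 in edgeR). Mean H2-Eb2 was 184 CPM in mature dendritic cells, 4.44 in cDC1, 13.6 in cDC2 and 1.09 in macrophages. Its level in the class thus rests mostly on mature cells. Mean Jak2 was 393, 113, 116 and 22.9 CPM in the same order. Jak2 (2.93), Cd80 (2.49), Irf8 (SE 0.48, adjusted p = 0.00248 in edgeR), Ifi30 (0.91) and Ifngr1 (0.59) were also higher. The 3 lower ones were the proteases that cut the invariant chain and antigens, Ctss (SE 0.25, adjusted p = 8.98e-07 in edgeR), Ctsl at -5.00 and Lgmn at -4.24. Rfx5 did not pass without Cre- replicate 3 (adjusted p = 0.13 in edgeR), Ifi30 without Cre- replicate 1 or Cre+ replicate 2 (adjusted p = 0.142 and 0.117 in edgeR), and Ifngr1 without Cre- replicate 1 or 3 (adjusted p = 0.204 and 0.132 in edgeR). With no low-count filter these 3 genes did not pass either (adjusted p = 0.0513 to 0.224 in edgeR). In B cells against macrophages 5 were higher and 8 lower, where 12.9 and 20.1% of all genes were, the same proteases among the lower ones, with Ctss at -3.11, Ctsl at -4.50 and Lgmn at -4.51. Rfx5 and Jak1 were not called there without Cre+ replicate 4 (adjusted p = 0.0627 and 0.566 in edgeR). In monocytes 3 of 22 were higher and 3 lower, near the 8.84 and 13.2% of all genes, again with Ctsl at -1.47 and Lgmn at -2.06. Ctss, at -0.78 there, did not pass in any of the 4 fits that left out a library. Between tumor epithelial cells and T cells 3 were higher and 13 lower, where 32 and 27.6% of all genes were, among the lower ones Irf8 at -5.29, Ifngr1 at -4.36 and Jak2 at -2.04. The higher ones were the protease gene Ctsl at 3.93, Ifngr2 at 1.18 and Ifi30. Under at least 1 alternative Ifi30, higher at 0.76, and H2-DMb2, H2-Eb2, Irf1 and Spi1, all lower, did not pass. Without Cre- replicate 3 these were H2-DMb2 (-2.06), H2-Eb2 (-2.64) and Irf1 (-0.61), with adjusted p = 0.0902 to 0.281 in edgeR. Between the genotypes 0 of the tested genes of the list passed in edgeR in any class.

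Across the 24 sums of class and library, Cd74 followed H2-Aa with Pearson's r of 0.991 on log2(CPM + 1), Ciita with 0.894 and H2-Oa with 0.54. These points share libraries and classes, so the values are descriptions. Of 11578 genes ranked, those most like the mean of the 8 were Cd40 (r = 0.969), Pkib (0.962), Wdfy4 (0.962, itself a marker of the dendritic gate), Btk (0.961), March1 (0.958), Rubcnl (0.95), Fgd2 (0.942), Cd86 (0.941), Themis2 (0.937) and BC028528 (0.936). Cd40, the receptor through which helper T cells signal back, had mean levels of 55.0 CPM in dendritic cells, 30.6 in macrophages, 14.8 in B cells, 0.965 in T cells and 0.429 in tumor epithelial cells. Btk had means of 42.9 CPM in dendritic cells, 41.7 in macrophages, 30.3 in monocytes, 32.3 in B cells, 0.487 in T cells and 0.249 in tumor epithelial cells.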

How the data were processed

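UMI counts were used as the authors deposited them, without normalization. By their headers they came from Cell Ranger 6.1.2 for replicates 1, 2 and 3, whereas replicate 4 was made with a version 4 release. The labels name the build hg38 although the genes are mouse, so no coordinates of the files are given. Barcodes were gated when at least 3 markers of a list had a UMI and the list passed a minimum per 10000 UMIs, with limits of 5 or 10 per 10000 on other lists and at most 2 dendritic markers in macrophages and monocytes. No doublet caller was run. Counts were summed per library and class, leaving out sums of fewer than 10 barcodes, and tested with edgeR 4.0.16 (quasi-likelihood, TMM, filterByExpr) in R 4.3.3. Comparisons between classes used 1 fit of all 6 classes, and those between genotypes the sums of the named class only. DESeq2 1.42.0 was an alternative. With each library taken as 1 mouse, its classes are paired by replicate number (correlations of deviations 0.03 to 0.28), and the mouse was fitted as a block in an alternative. Genotypes rest on 2 mice each. Shares of cells were compared after thinning to 1000 UMIs. Only the tests of macrophages between genotypes and of dendritic cells against macrophages were run on simulated counts. These counts had the same spread for all genes and no outlying library, doublets or free RNA. The check therefore does not cover such features of the real data. Members, markers and gene lists were chosen with earlier results of these data known, and the gate limits after marker levels had been seen. All 8 members are named, other pathway genes where they passed or stand beside a member, and the 10 genes most like the members. Intervals from counts cover counting error only.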

Additional observations from a re-analysis of the deposited data

Results flagged for a closer look

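In 48 groups of 4 libraries (8 genes in 6 classes), 6 held a library far from the other 3, where chance flags about 1 in 20 independent groups. These groups are not independent, since they share libraries and genes that vary together. Among the 3 chains and Cd74, Pearson's r was 0.986 to 0.998 across the sums of class and library. The number of flags is therefore not set against that rate. In macrophages, Cre+ replicate 2 was far above the others for H2-Aa (7510 CPM, others 4160 to 4680), H2-Ab1 (7580, others 4580 to 5060), H2-Eb1 (6350, others 3710 to 3890) and Cd74 (18400, others 10900 to 11300). Its macrophage list was at 177 UMIs per 10000, within the range of the other libraries (156 to 178), its monocyte list at 5.97 against 2.53 to 3.6 and its cDC2 list at 2.29 against 0.298 to 1.15. The part of monocyte or dendritic cell RNA in these values was not tested. In monocytes, H2-Oa was at 17.3 CPM in Cre- replicate 3 (others 0 to 1.9), on 14 UMIs. In B cells, H2-Oa was at 286 CPM in Cre+ replicate 4 (others 70.5 to 94.4), the library with 77 of the 126 B cells and with the highest B cell list (54.7 UMIs per 10000, others 18.8 to 36.9).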

How the results depend on the processing

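The limits of these values are 2 mice per genotype, 1 to 28 UMIs behind several B cell and mature dendritic cell values, gates that can pass doublets, and free RNA in every cell. Among fold changes between classes, 817 alternative values stayed on their side of the threshold and kept direction, 48 lost the call, 19 gained one and 9 changed direction. Between genotypes 318 stayed, 6 gained a call and 57 changed direction. The cause was not tested unless named here. The block changed no other call of the 8 genes than H2-DMb1 in dendritic cells (0.85) and Cd74 in monocytes (-0.87). DESeq2 moved the median of all genes in B cells against macrophages from -0.26 to -0.09, and of the 8 genes from -0.74 to -0.70, and called 1887 genes as higher and 2059 as lower there (1463 and 2279 in edgeR). In B cells against macrophages the stricter gate called 2281 genes, against 3742, with B cell sums from the Cre+ libraries only. Under DESeq2 the genotype called 11 genes in macrophages, 39 in dendritic cells, 2 in monocytes and 89 in tumor epithelial cells. With no low-count filter it called 20 in macrophages, 243 in dendritic cells, 28 in monocytes and 27 in B cells. In dendritic cells, RLE size factors gave 17, the study's upper depth limits 14, order-of-magnitude calling in replicate 4 gave 25 and the stricter gate 191 (1 in monocytes). In B cells the depth limits gave 35 and order-of-magnitude calling 1, which leaves 0 B cells in replicate 4 and so equals leaving it out. B cells of the genotypes under the stricter gate could not be fitted, since both Cre- sums had fewer than 10 barcodes.

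Leaving out each library in turn gave 2191 to 3548 calls for dendritic cells against macrophages, 2970 to 3148 for B cells, 1509 to 2349 for monocytes and 5689 to 7198 for tumor epithelial against T cells. For the genotype the range was 0 to 2263 in macrophages (highest without Cre+ replicate 2), 17 to 363 in dendritic cells, 0 to 86 in monocytes, 0 to 258 in tumor epithelial cells and 0 to 110 in B cells.

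Changes of direction, as log2 fold changes, were these. Against macrophages, B cell Ciita was -0.13 with no filter and -0.62 with order-of-magnitude calling (-0.79 to 0.59 without 1 library). Monocyte H2-DMb1 was -0.16 with no filter, -0.10 with the depth limits and -0.68 with the stricter gate (-0.13 to 0.28 without 1 library), H2-DMa was -0.20 with the stricter gate, and H2-Oa ran from -2.76 to 0.26. Between genotypes in dendritic cells, H2-Aa was 0.03 and Ciita 0.02 with order-of-magnitude calling, H2-Eb1 -0.03 and Cd74 -0.04 with the stricter gate and Cd74 0 with no filter. In monocytes the stricter gate gave 0.02 for H2-DMa, 0.14 for H2-DMb1 and -0.13 for Ciita. In tumor epithelial cells the depth limits gave -0.17 for H2-Aa, -0.20 for H2-Eb1 and 0 for Cd74, and H2-Oa was 0 with order-of-magnitude calling and 0.05 with the stricter gate. In B cells order-of-magnitude calling gave -0.26 for H2-Aa, -0.19 for H2-Ab1, -0.42 for H2-Eb1, -0.06 for Cd74 and -0.08 for H2-DMa, the depth limits 0 for Cd74, and H2-DMb1 was -0.11 in DESeq2 and -0.03 with RLE.

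Without 1 library, the genotype fold changes that changed direction ran as follows. Macrophage Ciita ran from -0.55 to 0.82. In dendritic cells H2-Aa ran from -0.12 to 0.06, H2-Ab1 from -0.03 to 0.14, H2-Eb1 from -0.04 to 0.21, Cd74 from -0.13 to 0.16, H2-DMa from -0.01 to 0.38, H2-Oa from -0.23 to 0.01 and Ciita from -0.26 to 0.18. In monocytes H2-Aa ran from -1.12 to 0.06, H2-Ab1 from -1.07 to 0.12, H2-Eb1 from -1.36 to 0.22, Cd74 from -1.03 to 0.22, H2-DMa from -0.93 to 0.22, H2-DMb1 from -0.91 to 0.14 and Ciita from -1.23 to 1.00. In tumor epithelial cells H2-Aa ran from -0.45 to 1.00, H2-Eb1 from -0.30 to 1.00, Cd74 from -0.28 to 1.04, H2-DMa from -0.07 to 0.80 and H2-Oa from -6.98 to 0.99. In B cells H2-Aa ran from -0.26 to 0.89, H2-Ab1 from -0.19 to 0.90, H2-Eb1 from -0.42 to 0.68, Cd74 from -0.06 to 0.24, H2-DMa from -0.08 to 0.99 and H2-DMb1 from -0.12 to 0.68.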

Other observations

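Outside the 6 classes compared, class II RNA was low in stromal cells. In fibroblasts H2-Aa was at 6.19, 33.6, 15.7 and 14.9 CPM and Cd74 at 10.3, 64.1, 31.2 and 24.7 CPM, and in endothelial cells Cd74 was at 11.5, 13.3, 43.4 and 46.5 CPM. H2-DMb1 in fibroblasts was at 9.02, 11.7, 9.42 and 8.71 CPM, with little spread between libraries, and gave 19.7, 6.56, 10.4 and 10.6% of their class II UMIs. In neutrophils Cd74 was at 77.1, 130, 157 and 510 CPM. Endothelial Cd40 was at 17.7, 35.9, 26.3 and 49.3 CPM, overlapping macrophages (31.4, 28.1, 40.6 and 22.4 CPM), in cells whose H2-Aa was at 5.77, 11.3, 22.8 and 27.4 CPM.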
